A study of Mus musculus with 2 samples.

Results

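The genes described here encode nucleolar proteins that assemble ribosomes, and they were measured in CD45-selected cells. The cells came from tumours of MC38, a colon carcinoma line of mouse origin, implanted in female C57BL/6 mice. Members were chosen by name alone: symbols beginning Nop, Nol, Utp, Rrp or Imp followed by a number, the Noc2l to Noc4l family, and Wdr43, Fbl, Dkc1, Ncl and Npm1. That rule found 47 genes among the 32285 of the deposited matrices. One library of cells came from mice given vehicle and 1 from mice given LC427, a compound known here by its code name only, with tumours taken on day 14. The study's title concerns LRBA, a regulator of CTLA4 trafficking, and CTLA4 degradation. All mice carried the same tumour line, and the labels do not give a dose, the number of mice behind a library or whether mice were pooled. With 1 library per group there is no replicate and no test. Intervals are given at 95% throughout and cover no more than counting error, and a difference between the libraries cannot be told apart from a difference between the mice or the preparations.

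In the nucleolus, RNA polymerase I makes a long precursor RNA that is folded, chemically modified and cut into the RNAs of both ribosomal subunits. Box C/D particles, built around fibrillarin (Fbl), Nop56 and Nop58, guide methylation of that RNA, and box H/ACA particles, built around dyskerin (Dkc1) and Nop10, guide pseudouridylation. The Utp, Imp and several Nop and Rrp proteins form the small subunit processome, in which Noc4l also acts. Noc2l, Noc3l, Nop2 and other Rrp proteins act on the large subunit. Cells that grow or divide make more ribosomes, and Myc is a well known activator of many of these genes.

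The vehicle library held 33711726 UMIs (unique molecules counted) and the LC427 library 28732435, of which 5245 and 6328 barcodes passed as cells, at a median of 3560 and 2425 UMIs. Removed for their share of mitochondrial UMIs were 137 vehicle and 12 LC427 barcodes, and the part of this in the differences between the libraries was not tested. Cells were assigned to classes by marker genes. The labelled selection for CD45 held in most cells, but 195 vehicle and 366 LC427 cells carried no UMI of Ptprc, the gene of CD45, and at least 3 UMIs of tumour or stroma markers. Of those markers, Sparc was seen in 99.5% and 99.7% of them, Tm4sf1 in 91.3% and 90.4% and Sox9 in 83.6% and 75.1%. Col1a1 was seen in 24.1% and 15.8% and Krt8 in 1.03% and 0.273%, whereas Epcam and Krt18 were at 0. The gate itself uses these markers, so it sets their shares in part. Because the markers differ in this way, the cells are called Ptprc-negative cells here. They also held UMIs of Klra4, an NK receptor gene, in 55.4% and 57.7% of cells, and their median depth was high, at 18973 and 10702 UMIs. The 8 classes compared were monocyte/macrophage (3411 vehicle and 3951 LC427 cells), CD8 T (184 and 257), CD4/Treg (92 and 121), other T (217 and 186), NK (258 and 114), conventional dendritic cells (DC; 53 and 75), mature DC (158 and 156) and the Ptprc-negative cells. Other T are T cells with UMIs of both CD8 and CD4/Treg markers or of neither. Cd8a was seen in 41.5% of the vehicle and 36.6% of the LC427 other T cells, so the class holds CD8 T cells as well. Cells outside the gates made up 8.69% of vehicle and 13.0% of LC427 cells, and cells with both T and macrophage markers 3.98% and 4.08%. The libraries shared 49 cell barcodes.

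Members lie on 18 chromosomes, and all 47 matched the GENCODE annotation by gene ID. In 37 of them the RefSeq promoter table (GRCm38.p6) holds a start site, and the 250 bases before it were searched on both strands for short known motifs. CACGTG, the E-box that Myc and related factors bind, was in 7 of the 37 members (18.9%) against 7.61% of 17492 protein-coding genes, and GGGCGG, the GC box, in 27 (73.0%) against 45.8%. CCGGAAG, a core bound by ETS factors, was in 18.9% against 10.2%, CCAAT in 29.7% against 39.5% and TATAAA in 10.8% against 13.7%. A match is a description of these letters and not a binding site. The E-box windows belonged to Imp4, Nol11, Nop2, Rrp7a, Utp14b, Utp18 and Utp25. Shown next, 5′ to 3′ on the gene's strand with the E-box, ETS core, GC box and CCAAT box in capitals on either strand, are members with high or unmoved ratios and examples of the E-box genes: Ncl (chr1:86359456-86359705, minus strand), Nol7 (chr13:43398126-43398375, plus), Nop56 (chr2:130274162-130274411, plus), Nop10 (chr2:112261676-112261925, plus) and, with an E-box, Nop2 (chr6:125131633-125131882, plus) and Utp18 (chr11:93885767-93886016, minus).
Ncl: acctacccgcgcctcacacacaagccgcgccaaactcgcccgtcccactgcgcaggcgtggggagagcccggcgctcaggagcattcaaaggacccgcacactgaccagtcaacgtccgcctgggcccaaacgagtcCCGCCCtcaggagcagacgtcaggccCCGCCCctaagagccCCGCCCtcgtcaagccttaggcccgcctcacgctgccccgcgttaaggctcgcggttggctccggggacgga
Nol7: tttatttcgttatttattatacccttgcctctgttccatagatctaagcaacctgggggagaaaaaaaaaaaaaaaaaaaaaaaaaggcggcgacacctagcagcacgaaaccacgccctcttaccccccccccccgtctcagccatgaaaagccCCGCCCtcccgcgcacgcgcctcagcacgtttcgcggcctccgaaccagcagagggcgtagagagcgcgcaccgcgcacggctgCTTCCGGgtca
Nop56: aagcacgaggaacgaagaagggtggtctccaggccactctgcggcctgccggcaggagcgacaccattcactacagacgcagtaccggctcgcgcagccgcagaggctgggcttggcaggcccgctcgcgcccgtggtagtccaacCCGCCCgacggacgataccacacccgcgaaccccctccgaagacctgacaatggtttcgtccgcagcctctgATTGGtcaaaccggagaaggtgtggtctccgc
Nop10: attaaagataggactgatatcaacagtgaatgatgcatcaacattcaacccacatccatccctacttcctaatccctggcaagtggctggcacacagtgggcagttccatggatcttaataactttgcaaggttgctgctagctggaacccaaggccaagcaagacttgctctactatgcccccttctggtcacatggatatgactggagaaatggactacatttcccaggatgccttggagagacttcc
Nop2: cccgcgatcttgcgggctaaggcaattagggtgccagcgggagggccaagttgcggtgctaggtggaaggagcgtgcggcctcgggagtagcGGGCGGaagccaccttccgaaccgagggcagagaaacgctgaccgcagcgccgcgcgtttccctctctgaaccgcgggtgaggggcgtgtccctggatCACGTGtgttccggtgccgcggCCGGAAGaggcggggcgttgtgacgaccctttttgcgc
Utp18: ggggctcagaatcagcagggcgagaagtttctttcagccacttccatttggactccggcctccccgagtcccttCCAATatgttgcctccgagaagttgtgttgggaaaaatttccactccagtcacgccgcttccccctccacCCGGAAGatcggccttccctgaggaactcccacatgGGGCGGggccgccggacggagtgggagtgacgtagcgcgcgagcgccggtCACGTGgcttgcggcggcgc
The Ncl window has 3 GC boxes, and the Nop10 window has none of the searched motifs. Nop2 and Utp18 carry their E-box 60 and 20 bases before the start site.

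Ncl and Npm1, the abundant nucleolar proteins nucleolin and nucleophosmin, made up much of the module. Over all cells Npm1 gave 25.9% of member UMIs, Ncl 16.2%, Nol7 10.6% and Nop10 6.67%, and the next 4 by UMIs were Noc2l, Fbl, Nop58 and Nop53. A UMI here marks the 5′ end of a molecule, so these shares were not divided by gene length. In all, 30 members had at least 1000 UMIs. Nol4 had 0 UMIs and Nol3 35, and neither is known for ribosome assembly: Nol3 encodes an inhibitor of cell death. Nol4l, their namesake, had 236. Utp14b, a copy of Utp14a, had 134 and lies within Acsl3 on the same strand, so its UMIs are uncertain.

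The summed level of the members, as CPM, its UMIs scaled to a fixed total for the class, was lowest in mature DC and macrophages and highest in the Ptprc-negative cells. In vehicle it was 1969 CPM in mature DC (1873 to 2070), 2239 in macrophages (2215 to 2263), 2590 in conventional DC (2401 to 2791), 3093 in CD4/Treg (2910 to 3286), 3342 in NK (3230 to 3457), 3618 in other T (3500 to 3739), 3622 in CD8 T (3489 to 3760) and 4862 in Ptprc-negative cells (4793 to 4931). The intervals of CD4/Treg and NK overlapped in that order, as did those of CD8 T and other T. In LC427 the order ran from 2233 CPM in mature DC (2096 to 2376) through 3055 in macrophages (3023 to 3086), 3141 in conventional DC (2933 to 3359), 4001 in CD4/Treg (3798 to 4213), 4538 in CD8 T (4382 to 4698), 4697 in NK (4425 to 4981) and 5032 in other T (4846 to 5224) to 6167 in Ptprc-negative cells (6094 to 6240). There macrophages and conventional DC overlapped, and so did CD8 T and NK, and NK and other T. Beside this, macrophage marker UMIs were seen in 60.9% of vehicle and 48.2% of LC427 CD8 T cells, and their part in the T cell levels was not tested. From genes of the Ptprc-negative cells, free RNA was put at 2.47% and 3.16% of CD8 T UMIs, and at 4.58% and 4.89% of macrophage UMIs. The libraries stood farther apart in NK, at 2.63% and 7.51%, and in mature DC, at 4.79% and 7.02%. Lower in LC427 were conventional DC, at 4.27% and 1.65%, and other T, at 2.70% and 1.64%. The gates hold these shares low, as described below.

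**Figure D1:**
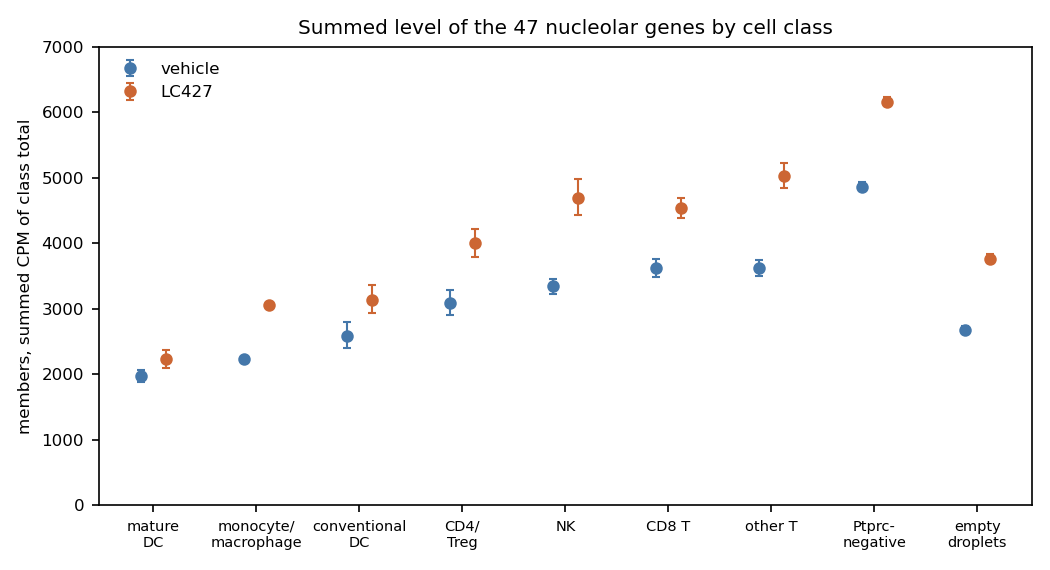
Summed CPM of the 47 members (y axis) in 8 cell classes and in empty droplets (x axis), blue for vehicle and orange for LC427, with 95% counting intervals. The LC427 point is above the vehicle point in every class and in empty droplets, from 1969 against 2233 CPM in mature DC to 4862 against 6167 in Ptprc-negative cells.

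Levels of single members followed the sum with exceptions. Npm1 stood at 568 CPM in vehicle macrophages and 1692 in vehicle Ptprc-negative cells, a ratio of 2.98 (2.88 to 3.07), and the LC427 ratio was 2.63 (2.55 to 2.72). Of 45 members counted, 31 in vehicle and 29 in LC427 were at least 1.5-fold higher in Ptprc-negative cells than in macrophages, against 46.5% and 42.6% of all genes, which also leaned that way. At least 1.5-fold lower was 1 member in each library, against 21.9% and 24% of all genes. Nop58 was 4.65-fold higher in vehicle (4.14 to 5.22) and 3.97-fold in LC427 (3.62 to 4.35), and Utp4, a subunit of the UTP-A complex that binds the precursor RNA first, 4.09-fold (3.30 to 5.07) and 4.75-fold (3.88 to 5.84). Nop53, a large subunit factor, went the other way, at 0.766 (0.659 to 0.887) and 0.759 (0.658 to 0.873). CD8 T cells exceeded macrophages in the sum by 1.62 in vehicle (1.56 to 1.68) and 1.49 in LC427 (1.43 to 1.54). Of 45 members, 22 in vehicle and 13 in LC427 passed 1.5-fold in CD8 T cells, beside 37.1% and 30.6% of all genes, and 1 and 3 passed downwards, beside 24% in each library. The 13 include Utp14b, which had 0 CPM in LC427 CD8 T cells and 2.62 in macrophages, because a count of 0 stood at 3 counts. Other genes unseen in the smaller CD8 T class can enter the all-gene shares of higher genes in the same way. No member was 2-fold higher or lower in CD8 T cells in both libraries. Nop56 came nearest by its smaller ratio among those past 2-fold in 1 library, with 2.59 (1.97 to 3.36) and 1.89 (1.45 to 2.43), and Ncl was at 2.08 (1.89 to 2.29) and 1.84 (1.70 to 2.00).

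Mature DC, cells that express Ccr7 on their way to lymph nodes, held the lowest levels. Their sum over that of macrophages was 0.880 in vehicle (0.836 to 0.926) and 0.731 in LC427 (0.686 to 0.779). There 20 of 45 members in vehicle and 27 in LC427 were at least 1.5-fold lower, against 28.5% and 32.8% of all genes, and 2 in each were called higher, against 22.6% and 24.3%. Among the 2 in LC427 was Utp14b, with 0 CPM in mature DC and 2.62 in macrophages, because a count of 0 stood at 3 counts. Other genes unseen in mature DC can enter the all-gene shares of higher genes in the same way. Nop10 was at 111 CPM against 187 in vehicle, and at 78.9 against 181 in LC427. Only 12 vehicle and 4 LC427 mature DC met the cycling gate used below. The mature DC gate set no upper limit on macrophage markers. Lyz2, a macrophage marker, was at 1211 CPM in vehicle and 518 in LC427 mature DC, and C1qa at 275 and 110. C1qa was seen in 25.3% and 9.62% of these cells. The part of macrophage RNA in the levels and ratios of mature DC was not tested.

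**Figure D2:**
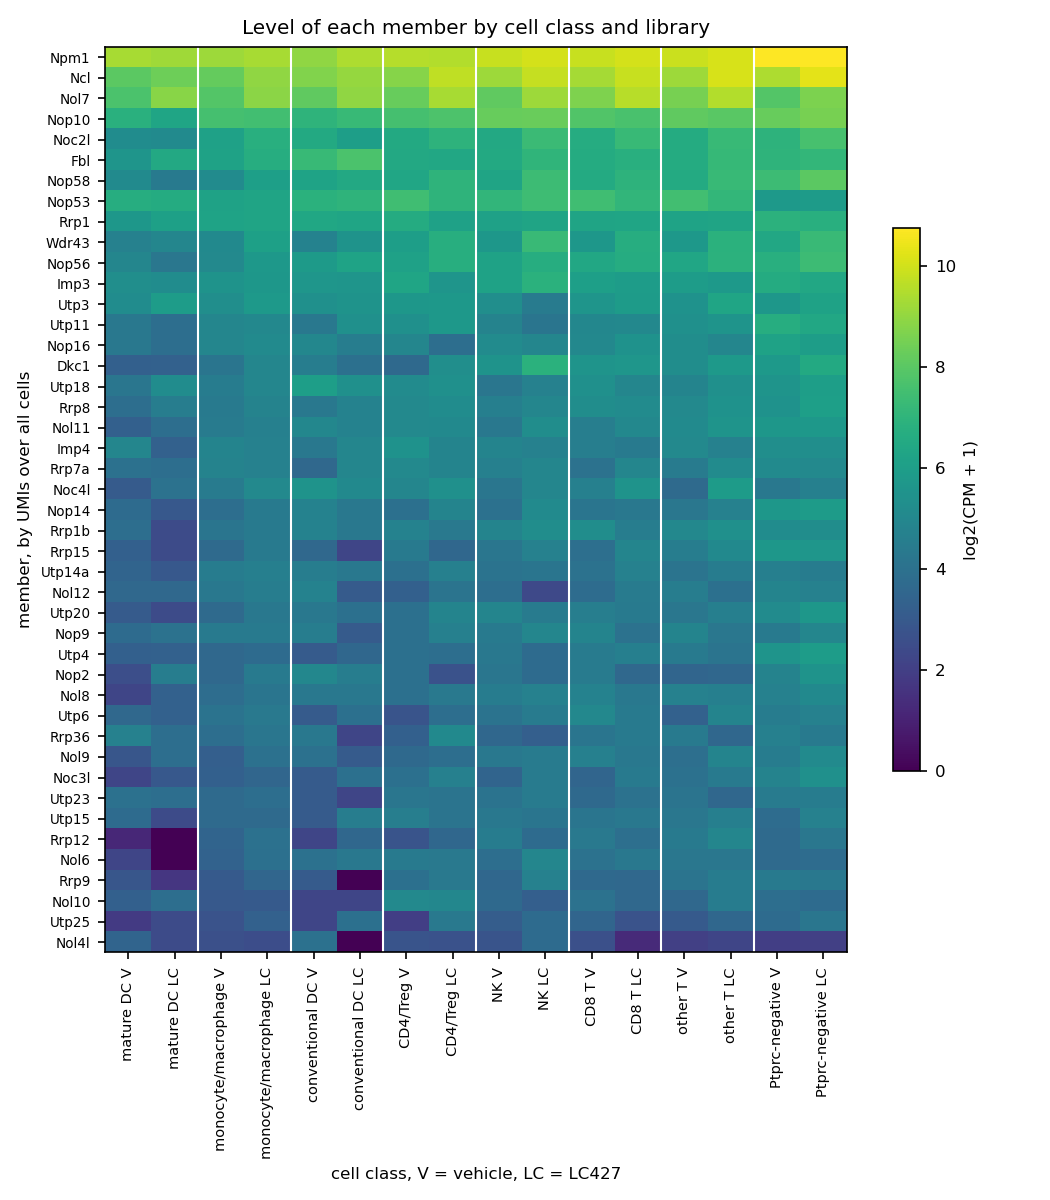
Level of each member as log2(CPM + 1) by colour, for 44 members (rows, by UMIs) in 8 classes and both libraries (columns); Utp14b, Nol3 and Nol4 are left out. Npm1, Ncl and Nol7 are the brightest rows and the Ptprc-negative columns the brightest columns, and mature DC hold the darkest cells.

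Between the treatments, the summed level was higher in LC427 in each of the 8 classes. In macrophages the 2239 CPM of vehicle stood beside 3055 CPM in LC427, a ratio of 1.36 (1.34 to 1.39). This ratio was 1.25 in CD8 T (1.19 to 1.32), 1.29 in CD4/Treg (1.19 to 1.40), 1.39 in other T (1.32 to 1.46), 1.41 in NK (1.31 to 1.504), 1.21 in conventional DC (1.09 to 1.34), 1.13 in mature DC (1.05 to 1.23) and 1.27 in Ptprc-negative cells (1.25 to 1.29). Empty droplets, barcodes of 10 to 100 UMIs that hold free RNA, moved as far: their member sum was 2675 CPM in vehicle and 3767 in LC427, a ratio of 1.41 (1.37 to 1.45). With the share expected from empty droplets subtracted, the ratio was 1.36 in macrophages, 1.25 in CD8 T, 1.39 in other T, 1.42 in NK and 1.28 in Ptprc-negative cells. Outside the Ptprc-negative cells that share rests on Sparc, Col3a1 and Col1a1. The gates of those classes left out cells with at least 3 UMIs of tumour or stroma markers, Sparc and Col1a1 among them. The gates thus hold the subtracted share low, so the part of free RNA in these ratios was not tested. The cells with both T and macrophage markers had a ratio of 1.21 (1.16 to 1.26) and those outside the gates 1.19 (1.16 to 1.23). The difference was one of share: a macrophage held a mean of 10.0 member UMIs in vehicle and 9.14 in LC427, in cells that were less deeply counted in LC427 (medians of 3669 and 2436 UMIs). With each cell thinned to 1000 UMIs, macrophages held a mean of 2.17 member UMIs in vehicle and 3.002 in LC427, and cells with none of them made up 13.6% and 6.73%. The libraries also differed in cells that met the cycling gate used below. Among CD4/Treg cells these were 18 of 92 in vehicle and 46 of 121 in LC427. Among macrophages they were 500 of 3411 and 430 of 3951. The part of cycling cells in the ratios between the libraries was not tested.

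Member by member, most ratios in macrophages were above 1. Of 45 members with at least 20 UMIs, 41 were above a ratio of 1, 15 were at least 1.5-fold higher in LC427 and 0 at least 1.5-fold lower. Over all genes the shares past that fold were 11.2% upwards and 6.02% downwards. The median log2 ratio of the members was 0.34, beside 0.13 for all genes, and 34 members stood above that median. Scaled by the median ratio of all genes in place of the total, 8 members passed the fold. The share of all genes past it under that scaling was not computed, so these 8 have no background beside them. In other T cells 12 of 41 members passed upwards (17.5% of all genes) and 2 downwards (11.6%), with medians of 0.43 for members and 0.10 for all genes. NK cells had 11 of 37 upwards (20.2%) and 3 downwards (16.7%), with medians of 0.41 and 0.09. In Ptprc-negative cells 12 of 46 passed upwards (8.71%) and 1 downwards (11.9%), with medians of 0.22 and 0.03. Thinned to 1000 UMIs a cell, which left fewer members counted, 6 of the Ptprc-negative members passed upwards. Neither the number of members counted nor the share of all genes past the fold was recorded there, so these 6 have no background beside them.

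In the remaining classes at most 8 members passed upwards. CD8 T cells had 8 of 41 members upwards (14.5% of all genes) and 4 downwards (11.7%), medians 0.18 and 0.02. In CD4/Treg cells 4 of 21 were upwards (19.5%) and 2 downwards (11.2%), medians 0.15 and 0.12, close to the background. Conventional DC had 1 of 14 each way (15.1% and 13.3%), medians 0.18 and -0.0027. Mature DC had 5 of 19 upwards (13.9%) and 4 downwards (15.2%), and their median was -0.11 beside 0.02 for all genes although their sum was higher.

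**Figure D3:**
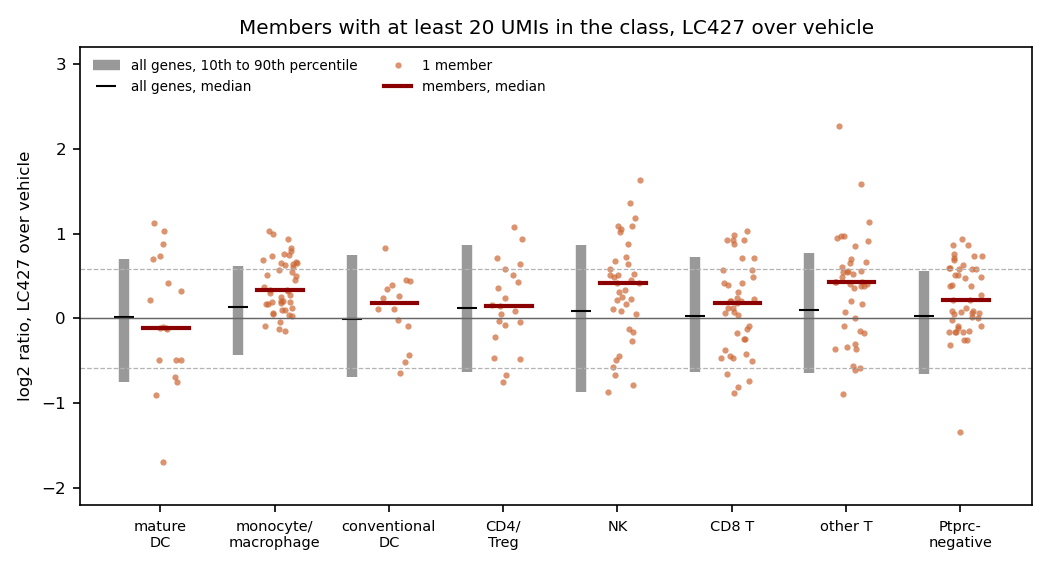
Log2 ratio of LC427 over vehicle (y axis) for each member with at least 20 UMIs in a class (orange points; dark red line, their median), beside all genes of that class (grey bar, 10th to 90th percentile; black mark, median). Dashed lines are 1.5-fold; in macrophages 15 members lie above the upper line and 0 below the lower one.

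Among the box C/D proteins, Nop58 and Nop56 were higher in LC427 macrophages. Nop58 stood at 34.8 CPM in vehicle and 66.6 in LC427, a ratio of 1.92 (1.71 to 2.14), and Nop56 at 32.7 and 51.8, a ratio of 1.59 (1.41 to 1.79). Fbl, the methyltransferase of the particle, stood at 72.7 and 103 CPM, and its ratio of 1.41 (1.30 to 1.53) stayed under 1.5. Nop58 reached 1.64 in Ptprc-negative cells (1.49 to 1.80), 1.59 in other T (1.17 to 2.16) and 2.13 in NK (1.41 to 3.17), while in mature DC it was at 0.595 (0.246 to 1.30) on 27 and 9 UMIs. In the same cells Fbl was at 1.83 (1.14 to 2.94), so the proteins of this particle did not keep 1 order of ratios over the classes.

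The box H/ACA pair split. Dkc1, the pseudouridine synthase, went from 17.2 to 29.1 CPM in macrophages (1.69, 1.44 to 1.99), and was at 1.67 in Ptprc-negative cells (1.41 to 1.97) and 2.56 in NK (1.53 to 4.21). Nop10, a small scaffold protein of the same particle, stayed at 187 and 181 CPM in macrophages (0.971, 0.918 to 1.03), and over the 8 classes it lay between 0.709 and 1.21.

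Of the 6 UTP-A and UTP-B members, which coat the precursor RNA as it is made, Wdr43 stood out. It went from 32.8 to 67.2 CPM in macrophages, 2.05-fold higher (1.83 to 2.30). Wdr43 also passed 1.5-fold in 6 of the 7 classes where it was counted, with 1.82 in Ptprc-negative cells (1.60 to 2.08), 2.04 in CD8 T (1.36 to 3.09), 2.19 in other T (1.49 to 3.24) and 3.09 in NK (1.97 to 4.82). With cells thinned to 1000 UMIs the NK ratio of Wdr43 was 1.51 (0.710 to 3.11). No other member of these complexes passed in macrophages. Utp15 was at 1.02 there (0.813 to 1.27) and at 1.91 in Ptprc-negative cells (1.36 to 2.71), on 52 and 111 UMIs, a value that turned below 1 with thinned cells. Utp6 was at 3.004 in other T cells (1.23 to 7.79) on 9 and 15 UMIs, and at 5.83 with thinned cells, where the interval held 1.

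Of the other 19 small subunit members, 6 were at least 1.5-fold higher in LC427 macrophages. Nol7, which is needed for early small subunit RNA processing, had the lower bound farthest from 1 of any member there. It stood at 233 CPM in vehicle and 465 in LC427, a ratio of 2.00 (1.92 to 2.09). By its CPM ratio, Nol7 was the 1 member past 1.5-fold in all 8 classes. The ratio ran from 1.70 in Ptprc-negative cells (1.57 to 1.84) to 2.19 in mature DC (1.77 to 2.70). It was 1.90 in CD8 T (1.65 to 2.19) and 1.78 in conventional DC (1.33 to 2.39), the last on 53 and 75 cells. With thinned cells, the share of conventional DC with Nol7 went the other way. It was 37.7% in vehicle (24.8 to 52.1) and 32% in LC427 (21.7 to 43.8), with overlapping intervals. In each other class compared this share was higher in LC427. Empty droplets held 258 CPM of Nol7 in vehicle and 426 in LC427 (1.65). Noc4l, a partner of Nop14, was at 1.54 in macrophages (1.33 to 1.80), 1.83 in CD8 T (1.01 to 3.42) and 4.81 in other T (2.41 to 10.2), the last on 12 and 32 UMIs. Utp3, which also acts early, was at 1.42 in macrophages (1.27 to 1.59) and 1.80 in other T (1.15 to 2.82). With thinned cells Noc4l was at 4.77 in CD8 T and 12.8 in other T, and Utp3 at 2.72 in other T, so the sizes of these T cell ratios are not fixed at this depth. The 1 member lower in Ptprc-negative cells was Utp14b, at 0.394 (0.175 to 0.829) on 25 and 11 UMIs whose origin is uncertain. The other 4 past the fold in macrophages, Utp25, Utp20, Nol6 and Rrp12, lay between 1.52 and 1.61. Imp3 and Imp4, partners in the processome core, did not pass: Imp3 was at 1.13 in macrophages (1.01 to 1.27), and Imp4 at 0.916 (0.788 to 1.06), below the median ratio of all genes (1.10).

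Large subunit members passed in macrophages in 4 of 11 cases. Noc2l, a partner of nuclear pre-60S particles, went from 70.0 to 110 CPM (1.57, 1.45 to 1.71), and Nop2, which methylates the large subunit RNA, from 11.4 to 19.8 (1.73, 1.42 to 2.12). Nol9, a kinase of precursor RNA ends, was at 1.77 (1.41 to 2.24) and Rrp15 at 1.66 (1.36 to 2.02). In Ptprc-negative cells Noc2l was at 1.61 (1.44 to 1.80), Nop2 at 1.66 (1.31 to 2.13) and Nol9 at 1.54 (1.18 to 2.03), whereas Rrp15 stayed at 0.990 (0.813 to 1.21). With these cells thinned, Noc2l was at 2.93, Nop2 at 6.93 and Nol9 at 2.49, the last with an interval that held 1. Nop53 and Rrp1 passed in none of the 8 classes: in macrophages Nop53 was at 71.3 and 76.2 CPM and Rrp1 at 73.4 and 76.7.

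The nucleolar organisers differed from each other. Ncl went from 296 to 497 CPM in macrophages (1.68, 1.61 to 1.75), from 692 to 1264 in Ptprc-negative cells (1.83, 1.74 to 1.91), from 580 to 1095 in other T (1.89, 1.68 to 2.12) and from 617 to 916 in CD8 T (1.48, 1.32 to 1.68). It was above 1 in all 8 classes and past 1.5-fold in 5. Npm1, the member with most UMIs, moved little: 568 to 650 CPM in macrophages (1.14, 1.11 to 1.18) and 1692 to 1709 in Ptprc-negative cells (1.01, 0.977 to 1.04). Over the 8 classes Npm1 lay between 0.925 and 1.37. In empty droplets Ncl was at 1.65 and Npm1 at 1.12. Of the members not known for ribosome assembly, Nol4l was at 0.906 in macrophages (0.632 to 1.29), and Nol3 had 12 UMIs in the Ptprc-negative cells of each library.

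**Figure D4:**
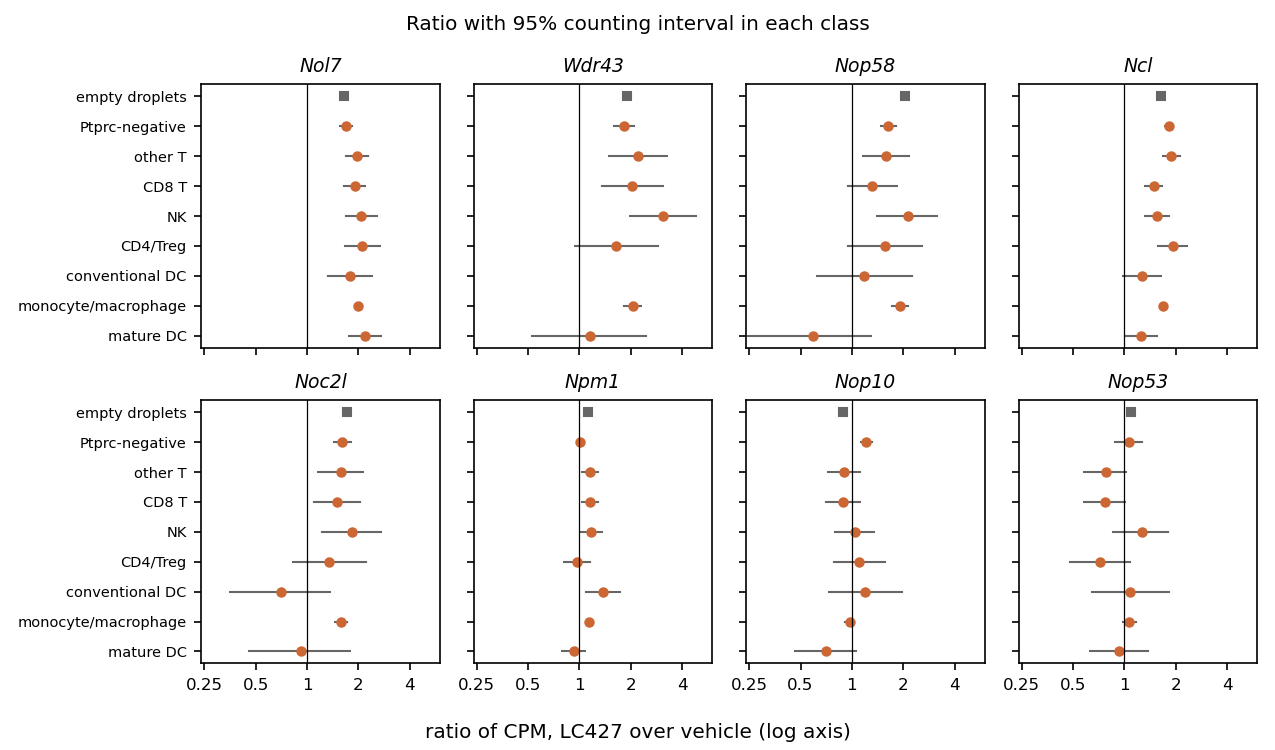
Ratio of LC427 over vehicle CPM (x axis, log scale) with its 95% counting interval for 8 members in each cell class (rows), and the ratio in empty droplets (grey squares, no interval drawn). Nol7 lies right of 1.5 in every class, Wdr43, Nop58 and Ncl in most, and Npm1, Nop10 and Nop53 lie around 1; Wdr43 was not counted in conventional DC.

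Across the 45 members counted in both, the macrophage log2 ratios ran with those of empty droplets (Spearman's rho 0.57) and with those of Ptprc-negative cells (0.55). They ran less with those of CD8 T cells (0.23, 41 members). The CD8 T ratios had a rho of -0.03 with those of Ptprc-negative cells and 0.20 with those of empty droplets (41 members each). Between Ptprc-negative cells and empty droplets the rho was 0.38 (45 members). No rho over all genes stands beside these values. These are descriptions over genes of the same 2 libraries, so depth and free RNA are shared by the points. Transcript length had a rho of 0.04 with the macrophage ratios of members and 0.20 with those of all genes.

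Macrophages were not 1 uniform population, and clusters of cells took different shares of the class in the libraries. A cluster led by Ccl17, Ccr2 and Spint1 made up 7.77% of the vehicle and 24.9% of the LC427 macrophages, and 1 led by Cbr2, Ccl8 and Gas6 19.4% and 6.86%. Within clusters, compared after the data were seen and with the members kept out of the clustering genes, the member sum was higher in LC427 in 8 of 9 clusters with an interval above 1. The ratio ran from 1.10 (0.993 to 1.22) in a cluster led by Plac8 and haemoglobin genes to 1.504 (1.45 to 1.56) in 1 led by Tpsb2 and Cx3cr1. It was 1.29 (1.24 to 1.35) in the Ccl17 cluster and 1.40 (1.34 to 1.46) in the Cbr2 cluster. Nol7 lay between 1.43 and 2.23 over the 9 clusters, Wdr43 between 1.32 and 3.23, Ncl between 0.937 and 2.03, and Npm1 between 1.08 and 1.40. The part of the changed cluster shares in the ratio over the class was not tested.

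Split by marker genes instead, cells with Ly6c2, a monocyte gene, and few C1q UMIs were set beside cells rich in C1q, complement genes of resident macrophages. The C1q cells (2379 and 2100) went from 2253 to 3136 CPM (1.39, 1.37 to 1.42), with 18 of 45 members at least 1.5-fold higher (10.5% of all genes) and 0 lower (6.10%). The Ly6c2 cells (104 and 181) went from 2085 to 2370 (1.14, 1.02 to 1.27), with 3 of 13 upwards (19.1%) and 1 downwards (12.6%). The difference between these ratios was not tested. Npm1 was the lower in Ly6c2 cells, at 322 against 587 CPM in vehicle (0.548, 0.437 to 0.679) and 383 against 690 in LC427 (0.556, 0.467 to 0.657). Fbl was alike, at 1.01 (0.602 to 1.58) and 1.00 (0.708 to 1.38). Cycling cells made up 18.8% and 16.5% of the C1q cells and 0.962% and 0% of the Ly6c2 cells.

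Several members carry small nucleolar RNA genes, which guide the same RNA modifications, within their introns or transcribed span. By the annotation 6 of the 47 (12.8%) hold 17 of them, against 1.18% of 22028 protein-coding genes: Nop56 has Snord57 and Snord110 among others, Nop58 Snord11 and Snord70, Ncl Snord82 and Snora75, Wdr43 Snord53 and Snord92, Nop53 Snord23, and Dkc1 1 unnamed gene. These hosts were set apart after their values had been seen. Hosts outside the members were not compared, so a link between host status and the ratios was not tested. In macrophages the median log2 ratio of the member hosts was 0.75, with 5 of 6 past 1.5-fold upwards, beside 0.29 and 10 of 39 for the other members. Of all genes 11.2% passed upwards there. In Ptprc-negative cells the medians were 0.72 and 0.11, in NK 0.87 and 0.26, in other T 0.61 and 0.40, and in CD8 T 0.30 and 0.12. Nop53 was the exception among the hosts, at 1.07 in macrophages (0.978 to 1.17) and 0.770 in CD8 T (0.585 to 1.01). For the 7 members with an E-box window and the 30 without one, the medians over those counted were 0.33 and 0.35 in macrophages, -0.24 and 0.21 in CD8 T, and 0.06 and 0.39 in Ptprc-negative cells.

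Cycling and other cells were compared within macrophages, Ptprc-negative cells, CD8 T and other T cells, and the member sum was higher in cycling cells with an interval above 1 in all of these but CD8 T cells of LC427. Cycling cells were those with at least 3 UMIs of 8 mitotic genes, none of them a member, and other cells those with 0, so that deeper cells meet the gate more readily. In Ptprc-negative cells the sum was 5214 against 3487 CPM in vehicle (1.495, 1.43 to 1.57) and 6446 against 4811 in LC427 (1.34, 1.29 to 1.39). In macrophages it was 2578 against 2112 (1.22, 1.19 to 1.25) and 3489 against 2883 (1.21, 1.18 to 1.24). Among T cells the ratio was 1.15 in vehicle (1.05 to 1.25) and 1.05 in LC427 (0.972 to 1.14) for CD8 T, and 1.16 (1.07 to 1.25) and 1.23 (1.13 to 1.34) for other T.

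In Ptprc-negative cells 23 of 44 members in vehicle and 13 of 43 in LC427 were at least 1.5-fold higher in cycling cells, beside 26.7% and 17.0% of all genes. At least 1.5-fold lower were 0 and 1, beside 16% and 20.2%. Dkc1 was 3.41-fold higher in vehicle (1.87 to 6.95) and 1.60-fold in LC427 (1.13 to 2.31), Ncl 2.14-fold (1.85 to 2.47) and 1.58-fold (1.44 to 1.74), and Fbl 2.11-fold (1.504 to 3.04) and 1.57-fold (1.19 to 2.10). Utp11, a processome protein, was 1.90-fold (1.33 to 2.81) and 1.85-fold higher (1.28 to 2.77). Rrp12 was at 1.81 (0.650 to 6.99) and 3.03 (1.13 to 11.4), on few UMIs. In macrophages 8 and 6 of 45 members were at least 1.5-fold higher, near the 15.0% and 13.7% of all genes, and 3 and 2 were lower (10.1% and 13.0%). The members past 1.5-fold in both libraries there were Nop58, at 1.92 (1.58 to 2.33) and 2.01 (1.69 to 2.37), Nop56, at 1.84 (1.49 to 2.25) and 1.51 (1.24 to 1.84), Utp3, at 1.56 (1.30 to 1.88) and 1.67 (1.38 to 2.01), and Nop9, at 1.67 (1.28 to 2.17) and 1.71 (1.26 to 2.31). The box C/D pair Nop58 and Nop56 was also past 1.5-fold in cycling other T cells of both libraries, with Nop58 at 1.64 (1.01 to 2.71) and 1.67 (0.999 to 2.84).

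**Figure D5:**
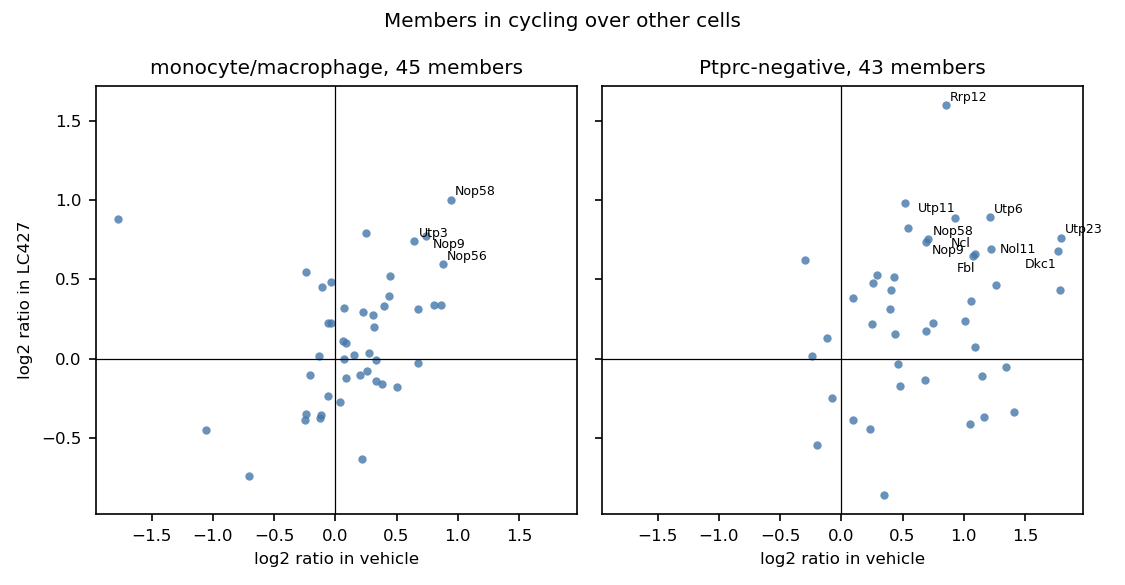
Log2 ratio of cycling over other cells in vehicle (x axis) and in LC427 (y axis) for each member with at least 20 UMIs, in macrophages (45 members) and Ptprc-negative cells (43 members); members at least 1.5-fold higher in both libraries are named. Most points of the Ptprc-negative panel lie right of 0.

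A wider list of 116 genes, other subunits of RNA polymerase I, small nucleolar RNA particles, the processome and large subunit assembly with Myc added, went with the members. In macrophages 35 of 116 were at least 1.5-fold higher in LC427 (11.2% of all genes) and 0 lower (6.02%), with a median log2 ratio of 0.43. Ttf1, the terminator of polymerase I transcription, went from 13.2 to 33.1 CPM (2.51, 2.11 to 2.99), and Bms1, the processome GTPase, from 30.7 to 58.5 (1.90, 1.69 to 2.15). Ddx21, a nucleolar helicase, went from 67.5 to 112 CPM (1.66, 1.53 to 1.80). In CD8 T cells 24 of 98 were higher (14.5%) and 5 lower (11.7%), with Ttf1 at 2.41 (1.25 to 4.90) and Ddx21 at 1.77 (1.38 to 2.29), and Tbl3 at 0.302 (0.0878 to 0.845). Myc itself was at 16.1 and 18.4 CPM in macrophages (1.14, 0.947 to 1.38), 22.2 and 15.6 in CD8 T (0.705, 0.298 to 1.59) and 118 and 111 in Ptprc-negative cells (0.940, 0.827 to 1.07). The genes of the ribosomal proteins themselves had a median log2 ratio of -0.03 in macrophages, where 4 of 48 were at least 1.5-fold higher (11.2% of all genes) and 2 lower (6.02%). In CD8 T cells their median was -0.18, with 2 of 46 higher (14.5%) and 8 lower (11.7%). Their difference from the assembly genes was not tested.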

How the data were processed

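Single-cell 5′ RNA was measured in 2 libraries of CD45-selected tumour cells. The authors deposited an unfiltered matrix of UMI counts per library over 32285 genes; per the submitters' processing notes Cell Ranger 3.0.1 and Seurat 3 were used on GRCm38 (mm10), whereas the file headers name Cell Ranger 4. From these counts, a barcode was kept as a cell from 1000 UMIs and 400 genes upwards, with no more than 10% mitochondrial UMIs. Classes were gated on UMIs of fixed marker genes; the thresholds were set after the marker sums were seen. No doublet caller was run, and cells with T markers and at least 20 macrophage-marker UMIs per 10000 were set aside. Class sums in each library are CPM (UMIs scaled to 1000000 for the class) with exact Poisson intervals. Ratios carry exact conditional binomial intervals, and a gene was compared with at least 20 UMIs over both sides. In fold counts and median log2 ratios a count of 0 stood at 3 counts. Plasmacytoid DC had too few cells (12 and 19). The calculation was checked on simulated counts. Members, gene lists, role groups and alternatives were chosen with earlier results of these data known. Genes were named by a rule: the 8 members with most UMIs, those past 1.5-fold with an interval leaving out 1 (up to 10 per class and direction in the 4 main classes), those higher in cycling cells of both libraries, and the same for the wider list.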

Additional observations from a re-analysis of the deposited data

How the results depend on the processing

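Alternatives were a minimum of 2000 UMIs, a stricter mitochondrial limit, doubled marker minima, Leiden clusters, thinning to 1000 UMIs, median-ratio scaling, other gene filters, subtraction of free RNA and leaving out Npm1 and Ncl. Of the main values 121 alternatives stayed within the stated limits and 27 moved; none of these reversed. With median-ratio scaling, LC427 over vehicle was 1.24 in macrophages, 1.30 in other T and 1.24 in Ptprc-negative cells, 8 macrophage members passed 1.5-fold (share of all genes not computed) and the wider list's macrophage median was 0.29. CD8 T over macrophages was then 1.37 in vehicle and 1.35 in LC427, and cycling over other Ptprc-negative cells 1.37 and 1.40. With Leiden clusters LC427 over vehicle was 1.39 in CD8 T, 1.48 in other T and 1.59 in NK, and CD8 T over macrophages in LC427 1.64. With thinned cells LC427 over vehicle was 1.35 in CD8 T, 1.52 in other T and 1.30 in Ptprc-negative cells, where 6 members passed (share of all genes not recorded). Thinned CD8 T over macrophages in LC427 was 1.60, cycling over other macrophages in LC427 1.25, and cycling over other Ptprc-negative cells 1.65 in vehicle and 1.47 in LC427. With doubled marker minima other T was 1.26. Without Npm1 and Ncl, LC427 over vehicle was 1.39 in macrophages, CD8 T over macrophages 1.53 in vehicle and 1.35 in LC427, and cycling over other cells in LC427 1.18 in macrophages and 1.22 in Ptprc-negative cells. Utp15 in Ptprc-negative cells turned to 0.932 with thinned cells. For the remaining values the cause of a move was not tested. No paired analysis was possible because each group has 1 library. For single members 443 alternatives stayed within the limits, 31 moved and 1 reversed. Depth limits the members under 20 UMIs per class, most of all in DC and CD4/Treg cells.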
